A study of Mus musculus with 18 samples.

Results

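The genes described here make cholesterol, control its synthesis or move it across membranes. They were measured in the jejunum of mice 16 h after abdominal irradiation. The 30 members are listed genes in 4 roles: 8 of the mevalonate steps, 12 of the sterol steps, 5 of the control of the transcription factor SREBP2 and 5 of cholesterol transport and esterification. Each was matched by symbol to 1 Ensembl ID among the 54532 genes of the count table, and all 30 passed the filter on low counts, as did 16257 genes in all. The mice were C57BL/6, an inbred strain, aged 8 to 12 weeks, with no transgene or deletion named in the labels. Radiation was a single dose of 15 Gy to the whole abdomen, delivered at an ultra-high dose rate (FLASH) or a conventional dose rate (CONV), and control mice received none. Whole jejunum was used for RNA, so epithelium and the tissue beneath it are mixed. The groups held 6 control libraries, 5 CONV libraries (numbered 2, 3, 5, 6 and 7) and 7 FLASH libraries (numbered 1, 2, 4, 5, 6, 7 and 9). Nothing in the labels says that the libraries are separate mice, so p-values measure only the spread between these libraries, which may be technical.

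Cholesterol is built from acetyl-CoA through mevalonate and isoprenoid intermediates to squalene, which is closed into lanosterol and trimmed in further steps to cholesterol. When sterols in the endoplasmic reticulum run low, SCAP escorts SREBP2 to the Golgi, where it is cleaved and released to raise transcription of most genes of the pathway, while INSIG proteins hold SCAP back when sterols are plentiful. In the jejunum, enterocytes take up cholesterol through NPC1L1, return it to the lumen through the ABCG5 and ABCG8 heterodimer, pass it to lipoproteins through ABCA1 and esterify it with SOAT2.

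Total estimated counts were 24.3 to 27.8 M in controls, 19.9 to 27.0 M in CONV and 23.1 to 30.2 M in FLASH. Levels are given in CPM, counts scaled to a common library size. Jejunal cell types were present: markers of absorptive enterocytes summed to between 22500 and 45800 CPM in controls, 62100 and 109000 in CONV and 70900 and 113000 in FLASH. Of 16 such markers, 7 were higher in CONV and 10 in FLASH than in controls by the gene test used throughout (edgeR quasi-likelihood, Benjamini-Hochberg adjusted p under 0.05). Over all genes 10.2% were higher in CONV and 16.7% in FLASH. The other markers, 9 in CONV and 6 in FLASH, did not pass, Vil1, Lct and Anpep among them in both. The sums weigh abundant genes most: Apoa4 averaged 5110, 23600 and 31800 CPM in control, CONV and FLASH, and Vil1 2200, 1880 and 2390 CPM. Markers of crypts and proliferation summed to 940 to 1490 CPM in controls, 210 to 331 in CONV and 156 to 295 in FLASH. Of these 12 markers, 6 were lower in CONV and 10 in FLASH, where 12% and 21% of all genes were lower. Olfm4 alone averaged 762, 31.2 and 49.5 CPM in control, CONV and FLASH, and Ccnb1 and Cdk1 passed in neither. Smooth muscle markers summed to 1140 to 3440, 160 to 1120 and 372 to 1190 CPM in the 3 groups in that order, and immune markers to 2630 to 5690, 890 to 2090 and 1450 to 2780 CPM. In these bulk libraries, more or fewer cells of a type and more or less RNA per cell cannot be told apart, and the part of such shifts in the results that follow was not tested. Of 6 acinar pancreas markers, Cpa1 and Pnlip were at 0 in every library. Cela1 averaged 5.29, 5.67 and 5.04 CPM in control, CONV and FLASH. Prss2, Ctrb1 and Amy2a5 had group means of at most 0.132 CPM. Expression also varied with transcript length: the slope of log2 CPM per doubling of length ran from -0.425 to 0.322 in controls, from -0.445 to 0.0503 in CONV and from -0.346 to 0.271 in FLASH. The most negative slope of each group was that of control 6, CONV 6 and FLASH 1.

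Promoter sequence is described first, since SREBP2 acts through it. Of the 30 members, 25 had a promoter window in RefSeq (GRCm38.p6), which reaches from 250 bases before to 50 bases after the start. Fdps, Fdft1, Sqle, Stard4 and Soat2 were not matched. Motifs were searched as letters on both strands. The SREBP consensus TCACNCCAC was found in 1 of 25 members, Hmgcs1, and in 1.44% of all 27025 genes with a window. The CCAAT box, bound by the factor NF-Y that works beside SREBP, was found in 22 of 25 members (88.0%) and in 41.1% of all genes. The GC box GGGCGG was found in 20 of 25 members (80%) and in 38.2% of all genes, and the E-box CACGTG in 6 of 25 (24%) and 8.09%. A match describes letters and does not show binding. The stretches of Hmgcs1 (chr13:119690201-119690350, plus strand), Hsd17b7 (chr1:169969242-169969395, minus strand) and Insig1 (chr5:28071182-28071362, plus strand) are printed 5′ to 3′, ahead of annotated exons. Hmgcs1 holds the SREBP consensus but passed in no comparison of groups. Hsd17b7 and Insig1 were called higher after both dose rates. The call on Hsd17b7 in CONV was kept in only 11 of 18 fits that left out 1 library. Capitals mark the SREBP consensus, the CCAAT box (read as ATTGG on the other strand) and the E-box.
Hmgcs1: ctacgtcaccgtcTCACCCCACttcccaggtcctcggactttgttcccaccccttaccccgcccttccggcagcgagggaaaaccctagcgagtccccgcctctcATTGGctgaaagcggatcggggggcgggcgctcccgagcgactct
Hsd17b7: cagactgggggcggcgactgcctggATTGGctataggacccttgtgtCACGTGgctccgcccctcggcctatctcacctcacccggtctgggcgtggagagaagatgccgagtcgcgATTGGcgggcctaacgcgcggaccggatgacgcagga
Insig1: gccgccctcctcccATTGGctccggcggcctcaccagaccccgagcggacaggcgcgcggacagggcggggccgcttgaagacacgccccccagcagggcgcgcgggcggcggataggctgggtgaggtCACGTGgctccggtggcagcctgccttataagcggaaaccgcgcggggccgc

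In unirradiated jejunum 4 of the 5 transport genes stood above every synthesis gene, and Abca1 did not. Per kilobase of transcript, Stard4, which encodes a soluble sterol carrier, and belongs to the SREBP2 control genes, had the highest mean level (197 CPM per kilobase), followed by the transport genes Npc1l1 at 157, Abcg5 at 102, Abcg8 at 80.2 and Soat2 at 70.3. The 20 synthesis members lay between 4.16 CPM per kilobase for Lss, lanosterol synthase, and 41.8 for Hmgcs1, which makes HMG-CoA. Abca1, at 5.49 CPM per kilobase, was above only Lss among them. Synthesis members varied little between control libraries and more between irradiated ones. Their median standard deviation of log2 CPM was 0.239 in controls, 0.573 in CONV and 0.46 in FLASH, where 6342 genes in the same range of mean level had medians of 0.337, 0.282 and 0.339.

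CONV against control shows how the pathway stood 16 h after the conventional dose rate. Of the 30 members, 9 (30%) were higher, 1 (3.3%) was lower and 20 did not pass. Over all 16257 genes 10.2% were higher and 12% were lower. The higher members were 4 of the 8 mevalonate genes, 4 of the 12 sterol genes and Insig1. The lower member was Lbr. None of the 5 transport genes passed. The median log2 fold change was 0.82 over the mevalonate genes, of which all 8 had a positive sign, 0.28 over the sterol genes and -0.04 over all genes tested. The plot of fold changes for all members shows the 3 comparisons side by side.

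**Figure D1:**
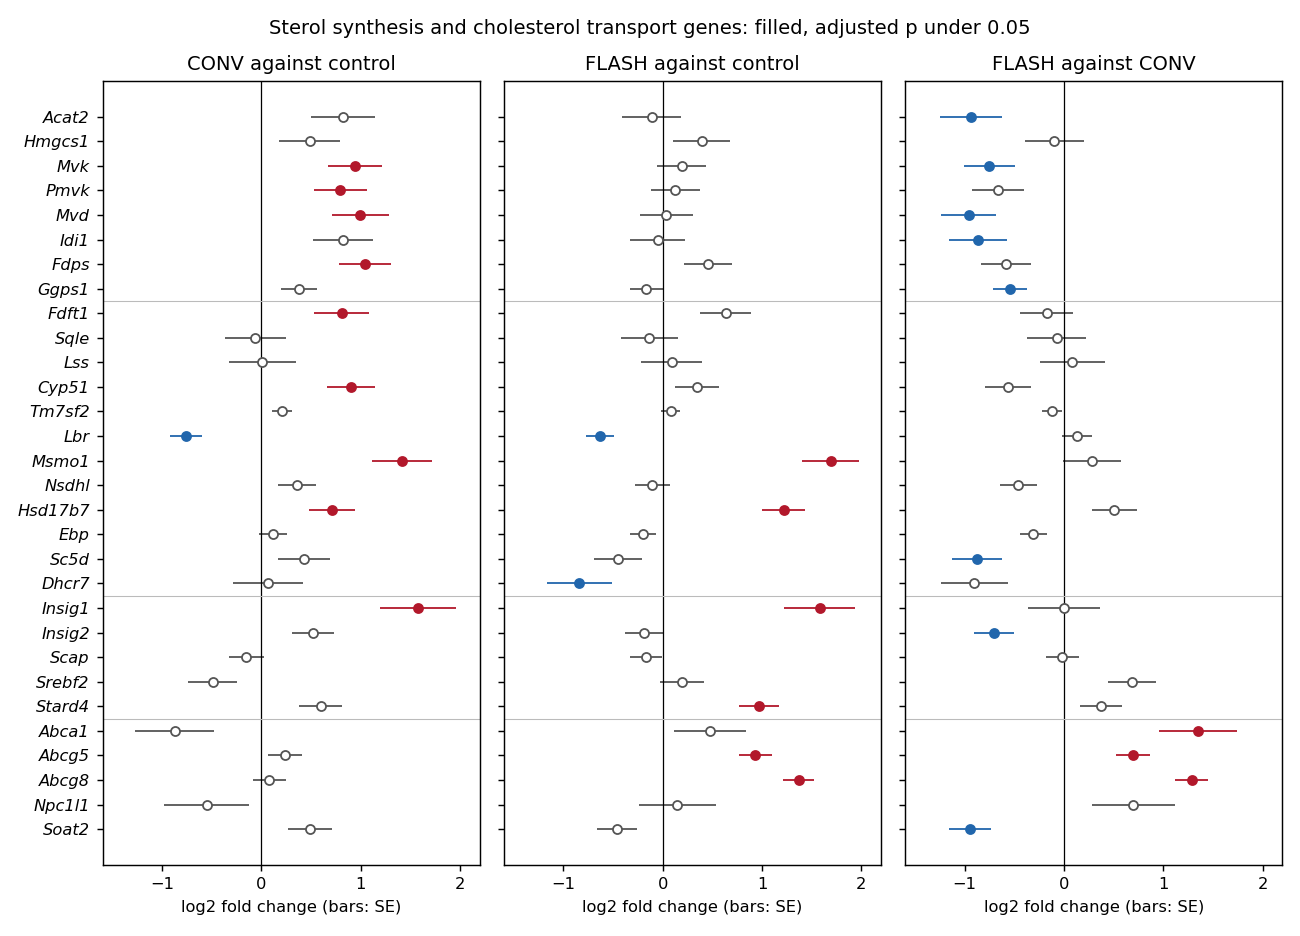
Log2 fold change (x axis, bars are standard errors) of the 30 members in the 3 comparisons, ordered by role from mevalonate steps to transport, with grey lines between roles. Filled points passed an adjusted p of 0.05 (red higher, blue lower): 9 higher and 1 lower in CONV against control, 6 and 2 in FLASH against control, 3 and 8 in FLASH against CONV.

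Among the mevalonate genes, Fdps, which joins isoprene units into farnesyl diphosphate, ran from 40.2 to 62.6 CPM in controls with a median of 48.1, and stood at 131, 55.0, 122, 143 and 54.8 CPM in CONV 2, 3, 5, 6 and 7. CONV 2, 5 and 6 were above every control and CONV 3 and 7 were within the control range. Fdps was higher by 1.04 ± 0.26 (log2, SE; adjusted p = 0.0103). It shares 26.7% of its exon bases with the overlapping gene Gm43738 on the same strand, so reads there could be split. Mvd, the decarboxylase that forms isopentenyl diphosphate, ran from 14.1 to 18.5 CPM in controls (median 15.4) and stood at 37.6, 20.3, 38.1, 39.5 and 22 CPM in the CONV libraries in that order. Every CONV library was above every control, with CONV 3 and 7 closest, and the difference was 1.0 ± 0.29 (adjusted p = 0.0207). Among members, 1 gene was higher with no overlap between groups (3.3%, with 5.46% of all genes), and it was Mvd.

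Mvk and Pmvk, the kinases that phosphorylate mevalonate in turn, showed the same libraries high. Mvk ran from 11.1 to 21 CPM in controls (median 16.0) and stood at 38.8, 19.8, 34.0, 43.8 and 18.2 CPM in CONV, a difference of 0.94 ± 0.27 (adjusted p = 0.0189). Pmvk ran from 10.9 to 24.3 CPM in controls (median 16.1) and stood at 37.8, 15.9, 26.2, 45.0 and 22.1 CPM, a difference of 0.79 ± 0.27 (adjusted p = 0.0412). CONV 3 and 7 lay inside the control range for both kinases. The other mevalonate genes were Acat2, Hmgcs1, Idi1 and Ggps1, with log2 fold changes of 0.82, 0.49, 0.82 and 0.38 and adjusted p from 0.0576 to 0.246.

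Of the 4 calls on mevalonate genes, 3 were lost without CONV 2 and without CONV 6. Mvk was 0.85 (adjusted p = 0.0566) without CONV 2 and 0.79 (0.072) without CONV 6, and Mvd was 0.93 (0.0554) and 0.90 (0.064). Pmvk did not pass without control 1, control 2, control 4, control 5, CONV 2 or CONV 6, with values from 0.59 to 0.80 and adjusted p from 0.0725 to 0.155. Pmvk also did not pass with library totals (0.55, 0.0914), the filter of at least 1 count (0.81, 0.0566), limma on the deposited log2 values (0.77, 0.0692), only the groups compared (0.79, 0.0717) or the offset for transcript length and GC content, under which its value was 0.51 (0.0717). Mvd did not pass with library totals (0.76, 0.062). Fdps passed in every fit that left out 1 library.

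Among the sterol genes, Msmo1 (chr8:64718139-64733792, minus strand, mm10), an oxidase that acts in the removal of sterol methyl groups, moved most. It ran from 50.6 to 73.5 CPM in controls (median 58.4) and stood at 236, 82.6, 151, 259 and 62.3 CPM in CONV 2, 3, 5, 6 and 7. CONV 7 was inside the control range and the other 4 CONV libraries were above every control, CONV 3 by the least. Msmo1 was higher by 1.41 ± 0.30 (log2, SE; adjusted p = 0.00373). Cyp51, the lanosterol demethylase, ran from 51.8 to 65.6 CPM in controls (median 61.1) and stood at 134, 76.9, 141, 149 and 64.9 CPM, a difference of 0.90 ± 0.24 (adjusted p = 0.0137). Hsd17b7, a sterol ketone reductase, ran from 16.1 to 25.7 CPM in controls (median 19.9) and stood at 43.8, 23.3, 38.8, 41.2 and 16.3 CPM, a difference of 0.71 ± 0.23 (adjusted p = 0.0351). Cyp51 overlapped controls through CONV 7 and Hsd17b7 through CONV 3 and 7. Fdft1, squalene synthase, ran from 38.7 to 52.0 CPM in controls (median 43.4) and stood at 117, 49.7, 99.0, 96.4 and 29.9 CPM, a difference of 0.81 ± 0.27 (adjusted p = 0.0418). CONV 7 was below every control for Fdft1. This gene shares 18.3% of its exon bases with the antisense gene Ctsb, and whether counting used strand is not given in the sources used here.

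Lbr (chr1:181815335-181843046, minus strand, mm10), a sterol reductase that also anchors heterochromatin at the nuclear envelope, went the other way. It ran from 46.3 to 69.4 CPM in controls (median 54.1) and stood at 31.8, 34.0, 29.1, 34.3 and 35.5 CPM in CONV. All CONV libraries were below all controls and close to each other. Lbr fell by 0.76 on the log2 scale (SE 0.16, adjusted p = 0.00288), and it was the only member lower with no overlap (3.3%, with 4.95% of all genes). Tm7sf2, the other enzyme with this reductase activity, ran from 26.4 to 33.4 CPM in controls and from 31.6 to 36.1 CPM in CONV and did not pass (0.20 ± 0.10, adjusted p = 0.145). Sqle, Lss, Nsdhl, Ebp, Sc5d and Dhcr7 did not pass either, with log2 fold changes from -0.06 to 0.43.

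Msmo1, Cyp51 and Lbr passed in every fit that left out 1 library. Fdft1 did not pass without control 1, 2, 3, 4 or 5 or CONV 2, 5 or 6, with values from 0.62 to 0.85 and adjusted p from 0.0507 to 0.136. Hsd17b7 did not pass without control 1, 2, 3 or 5 or CONV 2, 5 or 6, with values from 0.59 to 0.73 and adjusted p from 0.0503 to 0.108. Library totals ended the calls on Fdft1 (0.57, adjusted p = 0.12), Hsd17b7 (0.48, 0.121) and Cyp51 (0.66, 0.0511). Fdft1 and Hsd17b7 also did not pass with limma (0.67, 0.115 and 0.65, 0.0673), with only the groups compared (0.81, 0.0663 and 0.72, 0.0562) or without control 6, CONV 6 and FLASH 1 together (0.72, 0.089 and 0.60, 0.0825). Without control 6 the count of members higher in CONV was 13 and of members lower was 3, while without CONV 2 or without CONV 6 the count of members higher was 4.

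Insig1 (chr5:28071363-28078662, plus strand, mm10), itself a target of SREBP2 whose product retains SCAP, ran from 41.8 to 68.3 CPM in controls (median 52.1). It stood at 218, 64.6, 159, 282 and 57.3 CPM in CONV 2, 3, 5, 6 and 7. The same 3 libraries were above every control and CONV 3 and 7 were inside the control range. Insig1 was higher by 1.58 ± 0.38 (log2, SE; adjusted p = 0.0078) and passed in every fit that left out 1 library. Insig2, Scap, Srebf2 (the gene of SREBP2) and Stard4 did not pass, with log2 fold changes of 0.52, -0.15, -0.49 and 0.60 and adjusted p of 0.081, 0.533, 0.147 and 0.0535.

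The 20 synthesis genes divided the CONV libraries. Relative to the control mean, their median log2 level was 0.996, 0.712 and 0.948 in CONV 2, 5 and 6 and 0.154 and 0.0691 in CONV 3 and 7. In CONV 2, 5 and 6, 15, 16 and 16 of the 20 genes were above the highest control, with 4 in CONV 3 and 1 in CONV 7. CONV 3 and 7 also had the lowest summed enterocyte markers of the group (62100 and 62900 CPM, with 75000, 84500 and 109000 in CONV 5, 2 and 6), and the part of this in the result was not tested. In the transcript length slope, CONV 5 (0.0503) lay beside CONV 3 (0.0343), and CONV 2 and 6 (-0.32 and -0.445) beside CONV 7 (-0.211). The map of synthesis genes by library shows these differences.

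**Figure D2:**
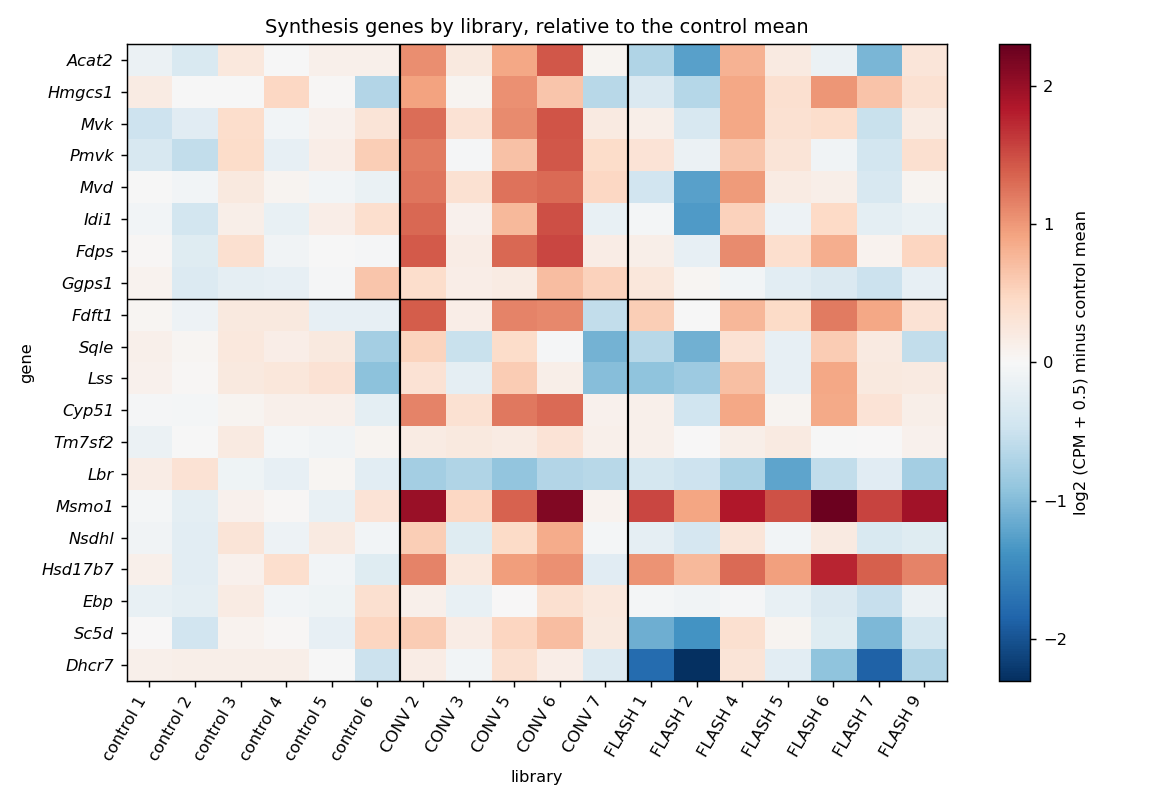
Level of the 20 synthesis genes (rows, mevalonate steps above the horizontal line and sterol steps under it) in each of the 18 libraries (columns), as log2 (CPM + 0.5) minus the control mean, with red higher and blue lower. CONV 2, 5 and 6 are red across most rows while CONV 3 and 7 are paler or blue, Msmo1 and Hsd17b7 are red in all 7 FLASH libraries, and Dhcr7 is darkest blue in FLASH 2, at 8.41 CPM.

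FLASH against control, which uses the same 6 control libraries, shows the pathway after the ultra-high dose rate. Of the 30 members, 6 (20%) were higher, 2 (6.7%) were lower and 22 did not pass. Over all genes 16.7% were higher and 21% were lower, so the share of members higher was near the background and the share of members lower was under it. The higher members were Msmo1, Hsd17b7, Insig1, Stard4, Abcg5 and Abcg8, and in each of the 6 every FLASH library was above every control (20%, with 6.93% of all genes). None of the 8 mevalonate genes passed, and their median log2 fold change was 0.08, with -0.07 over all genes.

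Msmo1 ranged from 111 to 283 CPM in FLASH with a median of 175, where the highest control had 73.5 CPM. The lowest was FLASH 2 and the highest FLASH 6, and no library overlapped. Msmo1 was higher by 1.69 ± 0.29 (log2, SE; adjusted p = 0.000197). Hsd17b7 ranged from 33.1 to 67.3 CPM (median 44.1), again with FLASH 2 lowest and FLASH 6 highest, and was higher by 1.22 ± 0.22 (adjusted p = 0.000308). Lbr ranged from 23.6 CPM in FLASH 5 to 46.1 CPM in FLASH 7 (median 36.9), which put FLASH 7 just under the lowest control at 46.3 CPM. It fell by 0.63 on the log2 scale (SE 0.14, adjusted p = 0.0021), and it was the only member lower with no overlap (3.3%, with 6.86% of all genes).

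Dhcr7, the reductase that completes cholesterol, was the other lower member. It ran from 30.1 CPM in control 6 to 47.1 CPM in controls (median 46.7) and from 8.41 to 53.0 CPM in FLASH (median 22.3). FLASH 1, 2 and 7 were lowest at 12.2, 8.41 and 11.5 CPM, and FLASH 6 and 9 stood at 22.3 and 26.2 CPM. FLASH 5 was inside the control range at 36.3 CPM, and FLASH 4 was above every control at 53.0 CPM. Dhcr7 fell by 0.84 on the log2 scale (SE 0.32, adjusted p = 0.048). Sc5d, the desaturase of the preceding step, showed a like order of libraries: 55.7, 46.5 and 59.7 CPM in FLASH 1, 2 and 7 and 157, 127, 101 and 92.2 CPM in FLASH 4, 5, 6 and 9, with 90.2 to 172 CPM in controls. Its difference of -0.45 ± 0.24 did not pass (adjusted p = 0.157). Dhcr7 passed only in the fits without control 6, FLASH 4 or FLASH 5. When any of the other 15 libraries was left out, the value was -0.86 to -0.69 and the adjusted p 0.0537 to 0.088. It also did not pass with DESeq2 size factors (-0.80, 0.0538), the filter of at least 1 count (-0.80, 0.0862), only the groups compared (-0.84, 0.079) or without control 6, CONV 6 and FLASH 1 together (-0.77, 0.0763).

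Within FLASH the synthesis genes again ordered the libraries. Their median log2 level relative to the control mean was 0.665 in FLASH 4 and 0.31 in FLASH 6, -0.0399, 0.126 and 0.116 in FLASH 1, 5 and 9, and -0.237 and -0.419 in FLASH 7 and 2. FLASH 4 had the highest value of its group in 11 of the 20 genes and FLASH 2 the lowest in 13. The 4 markers listed for the distal small intestine (Fabp6, Slc10a2, Slc51a and Slc51b) were also uneven, and 2 of them (Slc10a2 and Slc51b) were higher in FLASH than in controls. Their sum was 384 to 523 CPM in controls, 977, 791, 1030 and 1110 CPM in FLASH 1, 2, 6 and 7 and 353, 353 and 424 CPM in FLASH 4, 5 and 9. The former 4 libraries held the 4 lowest Dhcr7 values of the group, and the 4 lowest Acat2 values (15.8, 10.5, 23.5 and 12.2 CPM, with 45.4, 29.7 and 31.3 in the others). These genes were picked from the 20 after the values were seen, and the split was not tested. Lbr went the other way, at 41.4, 39.5, 36.9 and 46.1 CPM in FLASH 1, 2, 6 and 7 and 33, 23.6 and 31.9 CPM in the others. Other synthesis genes did not follow the split: FLASH 6, of the former set, had the highest value of its group in 6 of the 20. Among those were Hsd17b7 and Fdft1, at 67.3 and 102 CPM in FLASH 6, with FLASH 7 next at 51.7 and 82.3 CPM. Slc51a and Slc51b, the subunits of the basolateral bile acid exporter, were each higher in every library of the former set than in the latter. They made up most of the marker sum that defined the sets, so this was largely fixed by the split and is no separate result. Neither the defining ileal marker Fabp6, at 4.25, 0.256, 226 and 247 CPM in the former and 4.76, 1.08 and 0 in the latter, nor the bile acid importer Slc10a2, at 4.86, 3.76, 60.6 and 37.6 CPM and 6.12, 10.8 and 13.1 CPM, followed that split. Of 3 markers listed for the proximal small intestine, Gata4 and Slc40a1 were also higher in FLASH than in controls (0.77 and 0.59, adjusted p = 0.00229 and 0.0182) and Cybrd1 was lower (-1.45, adjusted p = 0.00995). The part of sampling position in these values was not tested.

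In the control of SREBP2, Insig1 ranged from 70.7 CPM in FLASH 2 to 252 CPM in FLASH 9 (median 161), above the highest control at 68.3. It was higher by 1.58 ± 0.36 (log2, SE; adjusted p = 0.00221). Stard4 ran from 149 to 232 CPM in controls (median 184) and from 272 to 440 CPM in FLASH (median 367), with FLASH 1 and 2 lowest. It was higher by 0.97 ± 0.20 (adjusted p = 0.00113). Insig2, Scap and Srebf2 did not pass, with log2 fold changes of -0.19, -0.17 and 0.19. The ratio of the paralogs Insig1 and Insig2 within a library was 1.12 to 1.47 in controls (median 1.28), 3.14, 1.15, 3.09, 4.27 and 1.05 in CONV 2, 3, 5, 6 and 7, and 2.74 to 7.56 in FLASH (median 3.51). Every FLASH library was above every control. The log2 ratio was higher in FLASH than in controls by 1.68 (two-sided exact permutation p = 0.000583, the smallest that 1716 splits allow; adjusted p = 0.00253 over 6 comparisons of the 2 ratios reported here, both chosen after their values were seen). CONV differed from controls by 0.78 (exact permutation p = 0.0996, adjusted 0.0996) and FLASH from CONV by 0.89 (exact permutation p = 0.0631, adjusted 0.0909). These p-values do not allow for that choice. Insig1 alone already separated FLASH from controls and Insig2 did not pass, so the ratio is no separate result.

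Abcg5 (chr17:84658234-84683011, minus strand, mm10) and Abcg8 (chr17:84676302-84700333, plus strand) encode the heterodimer that exports sterols into the gut lumen. A RefSeq start of each faces the other across 109 bases. Abcg8 also had a RefSeq window over its annotated gene start, which lies inside the span of Abcg5. The 109-base stretch (GRCm38.p6 chr17:84683012-84683120, printed on the plus strand toward Abcg8) is shown because both genes rose in FLASH. Capitals mark AGATAA, the letters of a GATA box, read as TTATCT on the other strand, at 93 and 63 bases before the Abcg8 start that faces Abcg5. That motif was chosen after the sequence was read, and it was found in 4 of 25 members (16.0%) and in 12.7% of all genes with a window.
Abcg5-Abcg8: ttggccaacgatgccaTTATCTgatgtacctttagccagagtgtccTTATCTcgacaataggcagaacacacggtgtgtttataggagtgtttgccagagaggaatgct

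Abcg8 had the smallest p of all members in FLASH. It ran from 140 to 235 CPM in controls (median 197) and from 403 to 593 CPM in FLASH (median 507), with FLASH 1 lowest and FLASH 9 highest. It was higher by 1.37 ± 0.16 (log2, SE; adjusted p = 3.81e-06). Abcg5 ran from 130 CPM in control 2 to 234 CPM in controls (median 209) and from 277 to 512 CPM in FLASH (median 382), with FLASH 7 lowest and FLASH 9 highest, a difference of 0.93 ± 0.16 (adjusted p = 0.00024). Abca1, Npc1l1 and Soat2 did not pass, with log2 fold changes of 0.48, 0.15 and -0.46 and adjusted p of 0.315, 0.793 and 0.0815. Npc1l1, the uptake channel, was among the most uneven members: it ranged from 199 CPM in control 6 to 992 CPM in controls and from 219 CPM in FLASH 1 to 1090 CPM in FLASH.

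The ratio of the RNAs of these genes differed between groups as well. Abcg8 over Abcg5 in CPM was 0.806 to 1.08 in controls (median 0.97), 0.904, 0.933, 0.867, 0.825 and 0.745 in CONV 2, 3, 5, 6 and 7, and 1.1 to 1.88 in FLASH (median 1.19). FLASH 7 had the highest ratio, and no FLASH library overlapped the other groups. The log2 ratio was higher in FLASH than in controls by 0.44 (two-sided exact permutation p = 0.00117, adjusted 0.00253) and than in CONV by 0.61 (exact permutation p = 0.00126, the smallest that 792 splits allow, adjusted 0.00253). CONV differed from controls by -0.17 (exact permutation p = 0.0758, adjusted 0.0909). This ratio was chosen after its values were seen, so its p-values do not allow for the choice and the differences are a description. The genes share 82 antisense exon bases, 3.02% of Abcg5 and 2.19% of Abcg8. Msmo1, Hsd17b7, Lbr, Insig1, Stard4, Abcg5 and Abcg8 passed in every fit of FLASH against control that left out 1 library and under each of the other 9 settings tried.

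**Figure D3:**
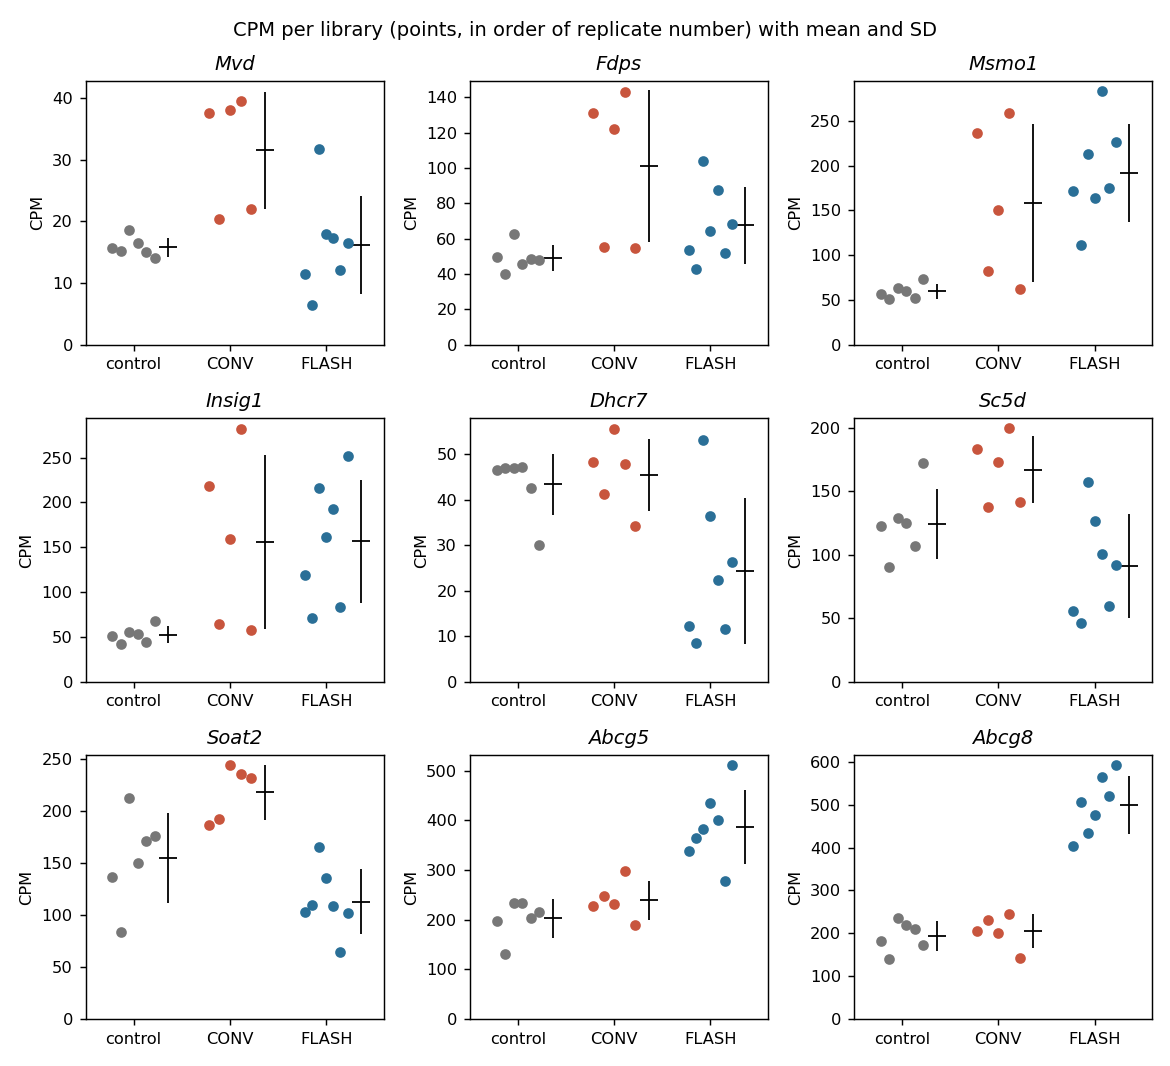
CPM (y axis, from 0) of 9 members in each library of the 3 groups; points are libraries in order of replicate number and the bar beside them is the mean with its SD. Every Abcg8 point in FLASH (403 to 593 CPM) lies above every control and CONV point, every Soat2 point in FLASH (64.8 to 166 CPM) lies under every CONV point, and for Fdps and Insig1 CONV 3 and 7 sit at the control level.

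FLASH against CONV compared the dose rates at the same dose and time. Of the 30 members, 3 (10%) were higher in FLASH, 8 (26.7%) were lower and 19 did not pass, where 9.88% of all genes were higher and 9.91% lower. The higher members were the transport genes Abca1, Abcg5 and Abcg8. The lower ones were 5 of the 8 mevalonate genes (Acat2, Mvk, Mvd, Idi1 and Ggps1), the sterol gene Sc5d, Insig2 and Soat2. All 8 mevalonate genes had a negative sign, with a median log2 fold change of -0.71, against -0.02 over all genes.

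Soat2 (chr15:102150526-102163469, plus strand, mm10), which esterifies cholesterol for packing into chylomicrons, was the member lower with no overlap (3.3%, with 4.45% of all genes). It stood at 187, 192, 244, 236 and 232 CPM in CONV 2, 3, 5, 6 and 7 and ran from 64.8 CPM in FLASH 7 to 166 CPM in FLASH 4 (median 109), while controls ran from 83.7 to 213 CPM. Soat2 was lower in FLASH by -0.95 ± 0.21 (log2, SE; adjusted p = 0.00503). In neither comparison with controls did it pass (0.49 in CONV, adjusted p = 0.108, and -0.46 in FLASH, adjusted p = 0.0815). Abcg8 was the member higher with no overlap (3.3%, with 4.08% of all genes). It stood at 206, 230, 201, 245 and 142 CPM in CONV, under the lowest FLASH library at 403 CPM, a difference of 1.29 ± 0.17 (adjusted p = 0.000188).

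Abcg5 stood at 228, 247, 232, 297 and 190 CPM in CONV and was higher in FLASH by 0.70 ± 0.17 (adjusted p = 0.00923). The groups overlapped through CONV 6 at 297 CPM and FLASH 7 at 277 CPM. Abca1, the pump that loads cholesterol onto apolipoprotein A1, stood at 22.3, 50.6, 34.7, 24.5 and 21.7 CPM in CONV and ran from 37.0 to 184 CPM in FLASH (median 59.1). FLASH 7 was highest, and CONV 3 lay within the FLASH range. Abca1 was higher in FLASH by 1.35 ± 0.39 (adjusted p = 0.0223), with controls between 21.2 CPM in control 6 and 79.2 CPM. Its call was lost without CONV 2 (1.25, adjusted p = 0.0605), CONV 6 (1.28, 0.0532), CONV 7 (1.24, 0.0634) or FLASH 7 (0.98, 0.0519), and with library totals (1.18, 0.0518).

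For Mvd, Acat2, Idi1 and Mvk among the lower mevalonate genes, CONV 3 and 7 were lowest and FLASH 4 was highest within their groups. Ggps1 did not follow that order: CONV 3 and 5 were lowest (27.1 and 28.0 CPM) and FLASH 1 was highest (29.3 CPM). Mvd ran from 6.36 CPM in FLASH 2 to 31.7 CPM in FLASH 4 (median 16.4), against 20.3 to 39.5 CPM in CONV, a difference of -0.96 ± 0.28 (adjusted p = 0.0209). Only FLASH 4 overlapped the CONV range. Acat2, which makes acetoacetyl-CoA, ran from 10.5 to 45.4 CPM in FLASH (median 23.5) and stood at 54.6, 30.3, 48.0, 70.4 and 26.8 CPM in CONV, a difference of -0.94 ± 0.31 (adjusted p = 0.0406). The controls lay between 20.1 and 30.6 CPM. Idi1, the isopentenyl diphosphate isomerase, ran from 32.1 CPM in FLASH 2 to 115 CPM in FLASH 4 (median 73.7) and stood at 200, 85.9, 135, 224 and 70.8 CPM in CONV, a difference of -0.87 ± 0.29 (adjusted p = 0.0422). CONV 3 and 7 were again inside the range of the other group.

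Mvk ran from 10.8 to 29.6 CPM in FLASH (median 17.9), a difference from CONV of -0.75 ± 0.26 (adjusted p = 0.0464). Ggps1, which makes the lipid anchor geranylgeranyl diphosphate, ran from 17.3 to 29.3 CPM in FLASH (median 21.4) and stood at 32.4, 27.1, 28.0, 40.2 and 35.5 CPM in CONV, a difference of -0.54 ± 0.17 (adjusted p = 0.0338). Only FLASH 1 reached into the CONV range for Ggps1. Sc5d stood at 183, 138, 173, 200 and 142 CPM in CONV, and its difference was -0.87 ± 0.25 (adjusted p = 0.0217), with FLASH 4 alone inside the CONV range. Insig2 ran from 20.1 to 56.0 CPM in FLASH (median 33.9) and stood at 69.5, 56.0, 51.6, 66.1 and 54.4 CPM in CONV, a difference of -0.70 ± 0.20 (adjusted p = 0.0208). FLASH 5 was the only library of its group in the CONV range.

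The count of members lower in FLASH against CONV fell most without CONV 2 or CONV 6: 1 member was lower without CONV 2 and 2 were lower without CONV 6. Mvd was then -0.89 (adjusted p = 0.0552) and -0.87 (0.0546), Sc5d was -0.84 (0.0507) and -0.80 (0.0536), and Insig2 was -0.64 (0.0582) without CONV 2. Acat2 did not pass without control 1 or 5, CONV 2, 5 or 6 or FLASH 1, 2, 6 or 7, with adjusted p from 0.0556 to 0.128. Idi1 did not pass without control 1, 3 or 5, CONV 2, 5 or 6 or FLASH 1, 2, 5, 7 or 9 (0.0512 to 0.142). Ggps1 did not pass without control 1 or 5, CONV 2, 6 or 7 or FLASH 4, 5, 6, 7 or 9 (0.0517 to 0.0957). Mvk passed only in the fits without control 6, CONV 3, CONV 7 or FLASH 4 (0.0503 to 0.139 in the others). Among the other settings, the offset for transcript length and GC content ended the calls on Insig2 (-0.38, adjusted p = 0.199) and Mvk (-0.58, 0.0731). The filter of at least 1 count and the fit of only the groups compared ended those on Acat2 (0.0617 and 0.0742), Mvk (0.0718 and 0.0675) and Idi1 (0.0602 and 0.073), and the filter also that on Ggps1 (0.0957). Mvk and Ggps1 did not pass with DESeq2 size factors (0.0537 and 0.0513), and Mvk, Idi1 and Ggps1 did not with limma (0.0793, 0.0887 and 0.0614). Without control 6, CONV 6 and FLASH 1 together, Acat2, Mvk, Mvd, Idi1 and Sc5d did not pass (-0.80 to -0.58, 0.0532 to 0.165). Abcg5, Abcg8 and Soat2 passed in every fit that left out 1 library. Without CONV 3 the count of members lower was 11.

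The 9 members that passed in no comparison were Hmgcs1, Sqle (squalene epoxidase), Lss, Tm7sf2, Nsdhl, Ebp (a sterol isomerase), Scap, Srebf2 and Npc1l1. Their log2 fold changes ran from -0.55 to 0.49 in CONV against control, from -0.20 to 0.39 in FLASH against control and from -0.46 to 0.70 in FLASH against CONV. Hmgcs1 ran from 84.8 to 189 CPM in controls, from 87.5 to 282 CPM in CONV and from 86.5 to 274 CPM in FLASH, so its groups overlapped widely. Tm7sf2 was the steadiest of the 9, between 26.4 and 36.1 CPM over all libraries. Msmo1 and Insig1, each higher than controls after both dose rates, differed between FLASH and CONV by 0.28 ± 0.29 (log2, SE; adjusted p = 0.538) and 0.0023 ± 0.37 (adjusted p = 0.997). Hsd17b7 differed by 0.51 ± 0.23 (adjusted p = 0.122), Stard4 by 0.37 ± 0.21 (0.226), Lbr by 0.13 ± 0.15 (0.587), Dhcr7 by -0.90 ± 0.34 (0.0649) and Srebf2 by 0.69 ± 0.24 (0.0511), none of which passed.

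Other genes of the pathway were read from 5 lists. Among 15 genes of SREBP1 and fatty acid synthesis, the sister branch of SREBP control, 1 was higher and 7 were lower in CONV against control, and 3 were higher and 8 lower in FLASH against control. Over all genes the shares were 10.2% higher and 12% lower in CONV and 16.7% higher and 21% lower in FLASH, so the lower genes of this list stood above the background and the higher ones near it. The desaturases Fads1 and Fads2 were lower by -1.40 ± 0.16 and -1.50 ± 0.26 in CONV (log2, SE; adjusted p = 1.38e-05 and 0.000773) and by -1.2 ± 0.14 and -1.67 ± 0.24 in FLASH (5.18e-06 and 3.15e-05). The elongases Elovl5 and Elovl6 were lower by -0.78 and -0.76 in CONV and by -0.94 and -0.97 in FLASH. Srebf1, the gene of SREBP1 and a target of the sterol receptor LXR, stood at 58.0 ± 13.8 CPM in the 6 controls (SD) and 269 ± 111 CPM in the 7 FLASH libraries, a rise of 2.21 ± 0.32 (adjusted p = 3.95e-05). It was higher in FLASH than in CONV by 1.38 ± 0.33 (adjusted p = 0.00766), the only gene of that list to pass there.

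Among 10 tested genes of LXR and efflux, of 11 listed, 2 were higher and 1 lower in CONV against control, 3 were higher and 0 lower in FLASH against control, and 3 were higher and 1 lower in FLASH against CONV. Over all genes these shares were 10.2% and 12%, 16.7% and 21%, and 9.88% and 9.91%, and with so few genes the counts are not read as apart from them. Cyp27a1, which makes an oxysterol from cholesterol, rose by 1.84 ± 0.24 in CONV (adjusted p = 4.98e-05) and by 2.41 ± 0.23 in FLASH (adjusted p = 6.96e-07). Lpcat3, a phospholipid remodelling enzyme induced by LXR, rose in FLASH by 0.77 ± 0.14 and Mylip, an LXR-induced ubiquitin ligase for lipoprotein receptors, by 1.12 ± 0.28 (adjusted p = 0.000339 and 0.00467). The other 7 tested genes did not pass in FLASH against control, from -0.66 for Abcg1 to 1.16 for Ch25h, with Nr1h3 at -0.02 and Scarb1 at 0.08. In CONV, Nr1h3, the gene of an LXR isoform, rose by 1.06 ± 0.30 while Arl4c was lower, at -0.80 ± 0.25 (adjusted p = 0.0177 and 0.0311). Nr1h3 was also the 1 gene of the list lower in FLASH than in CONV, at -1.08 ± 0.28 (adjusted p = 0.0135).

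**Figure D4:**
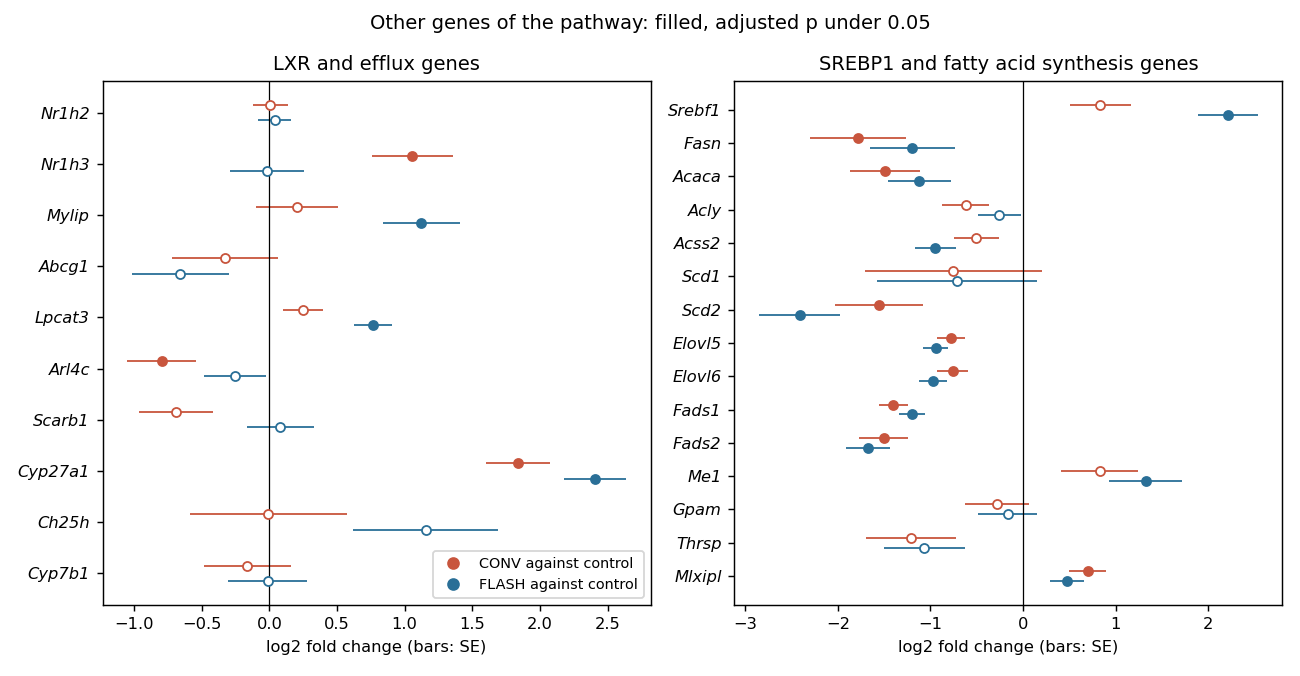
Log2 fold change against control (x axis, bars are standard errors) of 10 genes of LXR and efflux and 15 of SREBP1 and fatty acid synthesis, in CONV (red) and FLASH (blue); filled points passed an adjusted p of 0.05. Srebf1 and Cyp27a1 lie farthest to the right in FLASH, at 2.21 and 2.41, while Fads1, Fads2, Elovl5 and Elovl6 lie left of 0 after both dose rates.

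Among 14 genes of intracellular cholesterol handling, 2 were higher and 0 lower in CONV against control, and 5 were higher and 0 lower in FLASH against control. Over all genes these shares were 10.2% and 12% in CONV and 16.7% and 21% in FLASH. With 14 genes, the counts are not read as apart from them. Lipa, the lysosomal cholesteryl ester hydrolase, rose by 1.2 ± 0.19 in CONV and 1.79 ± 0.18 in FLASH (adjusted p = 0.000377 and 1.24e-06). Gramd1b, which moves cholesterol from the plasma membrane to the endoplasmic reticulum, rose in FLASH by 1.66 ± 0.26 (adjusted p = 7.86e-05), and Nceh1, a neutral cholesteryl ester hydrolase, by 0.88 ± 0.15 (adjusted p = 0.000255). Among 10 genes of SREBP processing, 0 were higher and 1 lower in CONV, and 2 were higher and 2 lower in FLASH, where the latter counts were near the background of 16.7% and 21%. Rnf145, a sterol-sensitive ubiquitin ligase, was lower by -1.38 ± 0.29 in CONV and -0.97 ± 0.26 in FLASH (adjusted p = 0.00333 and 0.00674). Among 9 tested genes of isoprenoid use, of 10 listed, 2 were higher and 1 lower in CONV, and 1 was higher and 1 lower in FLASH, with 10.2% and 12% of all genes in CONV and 16.7% and 21% in FLASH, from which counts this small are not told apart. Nus1, a subunit of the enzyme that makes dolichol chains, rose by 0.49 ± 0.15 in CONV and 0.83 ± 0.14 in FLASH (adjusted p = 0.0233 and 0.000134).

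The scaling of the libraries moved these counts. With library totals in place of the composition factors, the log2 fold change of all genes had a median of -0.25 in CONV against control, -0.44 in FLASH against control and -0.18 in FLASH against CONV, and the share of calls that were higher went from 46.0 to 24.2%, from 44.3 to 17.4% and from 49.9 to 24.4%. The mevalonate median then stood at 0.57, -0.28 and -0.83 and the sterol median at 0.05, -0.38 and -0.29. In FLASH against control the mevalonate median thus changed sign, while the sterol median was already -0.01 (0.03 with DESeq2 size factors), and both were less negative than the shift of all genes. Members higher in CONV numbered 4 of 30 under that scaling, Fdps, Msmo1 and Insig1 among them, and 10 were lower in FLASH against control.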

How the data were processed

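RNA of whole jejunum was sequenced from 18 libraries (6 control, 5 CONV, 7 FLASH) as single-end reads of 100 bp after stranded mRNA preparation from 250 ng of RNA, per the labels' protocols. Per the submitters' processing notes, the authors used STAR, Salmon, mm10, edgeR 3.40.2 and limma 3.54.2. The authors deposited a table of expected counts (estimated counts per Ensembl gene, not scaled), which was rounded to whole numbers. The deposited log2 table, which the authors had normalized, served only as an alternative. The 123 IDs without a symbol held 0.028% of counts. No pair of libraries was a duplicate.

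The main test was edgeR 4.0.16 (R 4.3.3; quasi-likelihood, robust, TMM, filterByExpr by group) over all 18 libraries in 1 fit, with Benjamini-Hochberg adjustment over 16257 genes and a threshold of 0.05. Fold changes are on the log2 scale, positive where the group named before "against" is higher, and their SE is the size of the fold change divided by the square root of F. CPM use TMM-scaled library sizes. Levels per kilobase use the median length of a gene's basic transcripts in GENCODE M21, which also gave positions and exon overlaps. SDs were read on log2 of CPM + 0.5. The pipeline was tested on simulated data. The members, lists, motifs and tests were chosen with earlier results of these data known. Members that passed in a comparison were named with values, the others by ranges, and of each other list up to 4 genes with the smallest p. Alternatives were DESeq2 1.42.0 or its size factors, library totals, a filter of at least 1 count, limma 3.58.1 on the deposited log2 values, only the groups compared, a replicate block, leaving out each library or control 6, CONV 6 and FLASH 1 together, and, chosen after seeing the data, an offset per library for length and GC content of transcripts. Figures used Python 3.11.15, pandas 2.3.3, numpy 2.4.6 and matplotlib 3.10.9.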

Additional observations from a re-analysis of the deposited data

Results flagged for a closer look

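In each group and member, the highest or lowest library was set against the others by Dixon's criterion, which chance alone meets in about 1 of 20 groups. Of 90 groups of values, 7 met it, 5 of them in control 6. Control 6 had 38.5 CPM of Ggps1 where the other controls reached 25.8, and it was lowest for Sqle at 31.9 CPM (next 57.0), Lss at 9.52 CPM (next 19.0), Dhcr7 at 30.1 CPM (next 42.6) and Srebf2 at 54.8 CPM (next 123). Control 2 had 130 CPM of Abcg5, under the next control at 198. FLASH 1 had 23.1 CPM of Scap, under the next FLASH library at 33.5.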

How the results depend on the processing

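Over the 9 settings other than leaving out a library, 810 values were recomputed: 723 kept their direction and side of the threshold, 47 no longer passed, 39 passed where they had not, and 1 reversed. The reversed value was Tm7sf2 in FLASH against control, at -0.29 (adjusted p = 0.0185) with library totals in place of 0.08. Of the values that did not pass, 40 changed sign. Over the 1620 values with 1 library left out, 1493 kept their direction and side, 93 no longer passed, 34 newly passed, 0 reversed and 42 that did not pass changed sign. Calls that passed in all 27 settings numbered 4 of 10 in CONV against control, 7 of 8 in FLASH against control and 3 of 11 in FLASH against CONV.

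Members higher in CONV numbered 4 with library totals. Members lower in FLASH against control numbered 10 with library totals and 1 with DESeq2 size factors, the filter of at least 1 count, only the groups compared, or control 6, CONV 6 and FLASH 1 left out together. Members lower in FLASH against CONV numbered 14 with library totals, 4 with the filter of at least 1 count, 5 with only the groups compared and 3 with those 3 libraries left out. With 1 library left out, genes called in CONV against control ran from 1869 (without CONV 6) to 6493 (without control 6), members higher there from 4 to 13 and members lower from 1 to 3. Members lower ran from 1 to 4 in FLASH against control (4 without FLASH 4) and from 1 to 11 in FLASH against CONV. Beyond the settings' own construction, the cause of these changes was not tested.

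A block on replicate number gave 1569 genes called in FLASH against CONV in place of 3217, and 5 members lower in place of 8. Under it Pmvk, Fdft1 and Hsd17b7 did not pass in CONV against control (adjusted p = 0.0696, 0.111 and 0.0822), nor Mvk, Idi1, Ggps1, Insig2 and Abca1 in FLASH against CONV (0.0698, 0.0966, 0.0746, 0.0725 and 0.0845). Same-numbered libraries deviated together (correlation over 0.1) in 3 of 13 pairs, with a range from -0.27 to 0.61, and 2 libraries correlated best with their own number, so the numbers were not taken to pair the libraries. Every member passed the filter on low counts, and how far depth or the number of libraries limits precision was not compared.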
